A study of Penicillium oxalicum with 9 samples.

Results

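The transcriptomes of 2 deletion mutants of the filamentous fungus Penicillium oxalicum, ΔcxrA and Δprmt3, were compared directly with each other. The comparison used 6 of the 9 libraries of the series, 3 of ΔcxrA and 3 of Δprmt3, chosen by their labelled genotype. Both mutants derive from strain HP7-1 through the background strain Δku70, in which ku70 was replaced by a hygromycin resistance gene to favour targeted integration, and in each mutant a G418 resistance gene stands in place of the deleted gene. The 3 strains thus share the loss of ku70 and the hygromycin marker, and the mutants share the G418 marker as well, so the same set of markers is present in both. The Δku70 libraries carry the label WT although the strain lacks ku70. Their levels are given beside those of the mutants. They also entered the scaling and the estimate of spread behind the tests of single genes, while the contrast itself was between the mutants. Mycelium was grown for 24 h at 28°C with 1% glucose and then for 24 h with 2% Avicel, a microcrystalline cellulose. Each strain had 3 libraries, 1 per biological replicate. The Δprmt3 libraries are labelled as a knockout of POX03070, and were assigned to Δprmt3, since no further deletion strain was sequenced and POX_b03080 was at or near 0 in them.

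CxrA is a transcription factor with a Zn2Cys6 zinc cluster, a DNA-binding fold of fungi, and is known in P. oxalicum as an activator of cellulase and xylanase genes. PRMT3 belongs to the protein arginine methyltransferases, which transfer methyl groups from S-adenosylmethionine to arginine residues of other proteins. On cellulose, filamentous fungi secrete cellobiohydrolases, which release cellobiose from chain ends, endoglucanases, which cut within the chains, lytic polysaccharide monooxygenases, which cleave crystalline chains oxidatively, and beta-glucosidases, which split cellobiose into glucose. Xylanases and the enzymes that remove the side groups of xylan are usually made at the same time, and sugar transporters take up the released sugars.

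Expression was measured by RNA-sequencing and deposited as FPKM, mapped fragments divided by transcript length and by library size. Levels below are scaled FPKM, that is FPKM divided by a median-of-ratios factor for each library, which was 0.822 to 0.863 in Δprmt3 and 1.23 to 1.28 in ΔcxrA. Between 9846 and 9885 features were above 0 in a Δprmt3 library and between 10202 and 10270 in a ΔcxrA library. In Δprmt3, 24.9% to 25.5% of the FPKM of a library lay in its 20 highest features, and in ΔcxrA 11.4% to 13.2%. For each of these values the libraries of the strains did not overlap, and the two-sided exact permutation test gave p = 0.1, the smallest that 3 libraries against 3 allow. Pearson's correlation coefficient on log2(scaled FPKM + 0.1), across features, which are not independent replicates, was 0.859 to 0.866 between a ΔcxrA and a Δprmt3 library and 0.947 to 0.967 between libraries of the same mutant. Read depth is not given, and the precision of a value is therefore judged from the 3 replicates. In whole mycelium, fewer cells of a type and less RNA per cell cannot be told apart.

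Differences are ΔcxrA minus Δprmt3 on the scale log2(scaled FPKM + 0.1), a scale that compresses changes at low values, and SE is the standard error of such a difference. A gene was called a DEG (differentially expressed gene) at a limma adjusted p-value under 0.05, with Benjamini-Hochberg adjustment over all 10578 features, and an absolute log2 difference over 1. Of 9363 annotated genes tested, 1418 (15.1%) were higher and 1205 (12.9%) were lower in ΔcxrA, 28.0% in all, and of all features tested 29.8% were called. For 69.0% of the annotated genes the libraries of the mutants did not overlap. The DEGs that were higher in ΔcxrA had the larger differences, with a median of 1.95 and 345 genes over 3 on the log2 scale, against a median of 1.59 and 131 genes over 3 for those that were lower. They also had lower levels, with a median of 9.81 scaled FPKM over the 6 libraries against 50.9. Among 1215 tested loci that carry no gene identifier, 44.0% were called, with 36.9% higher and 7.08% lower in ΔcxrA. How the DEGs divided by direction depended on the scaling. With FPKM taken as deposited, where the median annotated gene lay 0.57 higher in ΔcxrA instead of 0.02, 82.1% of the DEGs were higher in ΔcxrA, against 54.1% after scaling and 62.1% with upper quartile scaling, where the median lay 0.15 higher. Quantile normalization turned the majority, with 48.2% of the DEGs higher, 1198 against 1289 lower.

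**Figure D1:**
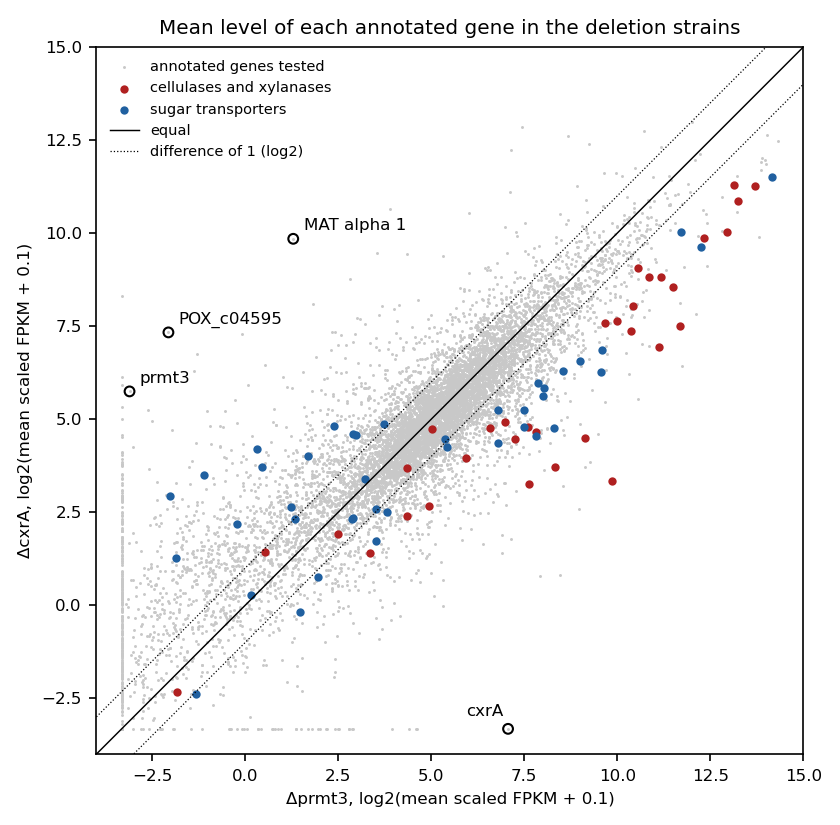
Mean level of each annotated gene in Δprmt3 (x axis) and ΔcxrA (y axis), as log2(mean scaled FPKM + 0.1), with genes of cellulases and xylanases in red, sugar transporter genes in blue, a solid line where the strains are equal and dotted lines at a difference of 1. Most red points lie below the lower dotted line, 28 of 33 being called lower in ΔcxrA, and the mating-type gene POX_g09022 lies far above the lines.

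The deleted genes were looked at first. For cxrA (POX_a00763) the Δprmt3 libraries had 157, 125 and 118 scaled FPKM, and every ΔcxrA library had 0. For prmt3 (POX_b03080) the ΔcxrA libraries had 51.3, 51.2 and 58.2 scaled FPKM, and the Δprmt3 libraries 0, 0.0475 and 0. POX_a00763 was taken as cxrA from its length, its Zn2Cys6 annotation and these values, so its absence from ΔcxrA is not an independent check of the label. By these values each deletion strain kept the gene that the other lacks. The Δprmt3 libraries were assigned partly by their POX_b03080 values, so the absence of prmt3 is no independent check of that label either. The Δku70 libraries had 94.1 to 133 scaled FPKM of cxrA and 27.4 to 35.1 of prmt3.

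The genes beside the deleted ones were looked at for their position. Just before cxrA in identifier order, POX_a00762, of unclassified annotation, was at 3235, 3551 and 3492 scaled FPKM in Δprmt3 and at 83.5, 89.4 and 87.3 in ΔcxrA, with 481 to 1097 in Δku70. Its log2 difference of -5.30 (SE 0.27, limma adjusted p = 1.7e-06) was among the 10 largest falls of genes above 0 in all 6 libraries. On the other side of cxrA, the endoglucanase gene POX_a00764 was at 14854, 13578 and 11837 scaled FPKM in Δprmt3 and at 1982, 2354 and 3090.1 in ΔcxrA, a log2 difference of -2.46. POX_a00761, which lies before POX_a00762, differed between the mutants by 0.03 (95% interval -0.60 to 0.66). A difference of over 0.66 on the log2 scale lies outside that interval. POX_a00761 was at 613 to 1084 scaled FPKM in Δprmt3, 704 to 999 in ΔcxrA and 2213 to 3815 in Δku70. Both mutants thus lay below Δku70. Beyond POX_a00764, POX_a00765 was at 0 in all Δprmt3 libraries, 0.905 to 4.50 in ΔcxrA and at most 1.12 in Δku70. It was called, with a difference of 4.70. The neighbours of prmt3, POX_b03079 and POX_b03081, differed by 0.71 and 0.30 and were not called. Further out, POX_b03078 was lower in ΔcxrA, at 76.6, 116 and 114 scaled FPKM in Δprmt3, 11.9, 13.4 and 15.1 in ΔcxrA and 94.8 to 105 in Δku70 (log2 difference -2.89, SE 0.16, limma adjusted p = 2.6e-06), and POX_b03082 differed by -0.16 and was not called. For POX_b03078 the Δprmt3 and Δku70 libraries overlapped. Whether the marker cassette acts on the genes beside it was not tested.

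Most listed genes for breaking down cellulose and xylan were lower in ΔcxrA than in Δprmt3. Of 33 genes annotated as cellobiohydrolases, endoglucanases, lytic polysaccharide monooxygenases, beta-glucosidases or xylanases, 28 were lower, 0 were higher and 5 were not called, with a median log2 difference of -2.36. On FPKM without further scaling 27 were lower and 1 was higher. These annotations come from tables of genes that the study had called against Δku70 on these same libraries, so the lists are not independent evidence of a direction. Of all 2469 genes listed there, 68.5% were called, 36.0% higher and 32.5% lower, with a median of 0.12. Of the other 6894 annotated genes, 7.69% were higher and 5.83% lower, and over all annotated genes the median was 0.02. Together the 33 genes held 4.84% to 5.65% of the FPKM of a Δprmt3 library, 1.12% to 1.76% of a ΔcxrA library and 3.64% to 5.18% of a Δku70 library. The shares of the mutants did not overlap (exact permutation p = 0.1, two-sided, the smallest possible).

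Both cellobiohydrolase genes were abundant in Δprmt3 and lower in ΔcxrA. POX_d05671 was at 10361, 9343 and 9404 scaled FPKM in Δprmt3 and at 1441, 1732 and 2409 in ΔcxrA, with 7397 to 13291 in Δku70. The lowest Δprmt3 library was above the highest ΔcxrA library, and the log2 difference was -2.41 (SE 0.28, limma adjusted p = 0.00011). The other, POX_d04867, had 7936, 8022 and 7545 in Δprmt3 and 872, 995 and 1272 in ΔcxrA, a log2 difference of -2.92 (SE 0.22, limma adjusted p = 1.1e-05). In both genes ΔcxrA replicate 3 was the highest ΔcxrA library.

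All 9 endoglucanase genes were lower in ΔcxrA, with log2 differences from -4.61 to -1.49. The largest difference was in POX_e06915, at 273, 379.5 and 305 scaled FPKM in Δprmt3 and 10.1, 12.7 and 16.4 in ΔcxrA. POX_b02748 fell similarly, from 196 ± 33.3 to 9.37 ± 1.96 (SD, n = 3). The more abundant POX_a00030 was at 2915 ± 13.0 in Δprmt3 and 377 ± 94.9 in ΔcxrA (SD, n = 3), a log2 difference of -2.98. POX_h09768 was at 209.8 to 234 in Δprmt3 and 24.2 to 26.5 in ΔcxrA, a log2 difference of -3.15. The smallest difference of the 9 was that of eg1 (POX_d04883), at 1915, 1390.4 and 1224 scaled FPKM in Δprmt3, 488, 501 and 600.4 in ΔcxrA and 592 to 813 in Δku70. The fit gave -1.49 (SE 0.19, limma adjusted p = 0.00019), and -0.92 on FPKM without further scaling, short of the threshold.

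Of the 3 genes for lytic polysaccharide monooxygenases, 2 were lower in ΔcxrA. The gene cel61A (POX_b02315) was at 2196, 2066 and 2386 scaled FPKM in Δprmt3 and at 98.1, 118 and 151 in ΔcxrA, with 4161 to 8441 in Δku70. Its log2 difference was -4.19 (SE 0.26, limma adjusted p = 4.0e-06). POX_g09366 was at 559.7, 613 and 499 in Δprmt3 and 15.2, 22.8 and 28.8 in ΔcxrA, a log2 difference of -4.68. POX_c04131, at 20.1 ± 3.34 and 12.8 ± 0.33 (SD, n = 3), differed by -0.64 and was not called.

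Among 10 beta-glucosidase genes 7 were lower in ΔcxrA and 0 were higher. The most abundant, POX_c04019, was at 8856, 9290.0 and 8832 scaled FPKM in Δprmt3 and 1719.8, 2383 and 3459 in ΔcxrA, a log2 difference of -1.89 (SE 0.26, limma adjusted p = 0.00032). The ΔcxrA libraries overlapped the Δku70 libraries, at 2415 to 3419.5, and lay below every Δprmt3 library. Quantile normalization, which sets every library to the same distribution, reduced the difference to -0.77, short of the threshold. The gene bgl1 (POX_e06772) was at 95.1 ± 10.8 scaled FPKM in Δprmt3, 27.0 ± 3.83 in ΔcxrA and 224 ± 11.3 in Δku70 (SD, n = 3), a log2 difference of -1.81. POX_a00284 differed by -2.78, POX_b03072 by -2.80, POX_g09069 by -2.26 and POX_f08346 by -2.51, the last with ΔcxrA libraries spread from 147 to 393 scaled FPKM.

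The 3 beta-glucosidase genes not called had low to moderate levels. POX_e06434 was at or under 0.197 scaled FPKM in all 6 libraries, with overlapping strains. POX_a00961 overlapped as well, at 26.7 to 37.5 in Δprmt3 and 26.2 to 26.7 in ΔcxrA, and its difference was -0.27 (95% interval -0.80 to 0.25). POX_a00456 was at 1.02 to 1.55 and 1.88 to 3.76, a difference of 0.85 (95% interval -0.05 to 1.76).

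Of 9 xylanase genes 8 were lower in ΔcxrA. POX_c03490 had the largest difference of any named enzyme gene, with 907, 1066 and 804 scaled FPKM in Δprmt3, 11.5, 10.4 and 8.00 in ΔcxrA and 304 to 436 in Δku70. Its log2 difference was -6.53 (SE 0.18, limma adjusted p = 1.1e-07). Next came xyn11A (POX_a01871), at 3309, 3439 and 3161 in Δprmt3 and at 143, 169 and 232 in ΔcxrA, with 1072 to 1477 in Δku70, and its log2 difference was -4.21 (SE 0.19, limma adjusted p = 8.1e-07). In both genes the Δku70 libraries lay between those of the mutants.

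The other xylanase genes showed smaller differences. POX_g08543, the most abundant xylanase transcript in both mutants, was at 5118 ± 341 in Δprmt3 and 942 ± 154 in ΔcxrA (SD, n = 3), a log2 difference of -2.45. POX_e06720 was at 1320.4 ± 67.7 and 167 ± 33.2 (SD, n = 3), and POX_f07706 at 60.5 ± 7.28 and 15.5 ± 1.66 (SD, n = 3), a difference of -1.96. POX_b02731, at 3.49 to 8.24 and 2.96 to 4.48, overlapped between the strains and was not called.

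**Figure D2:**
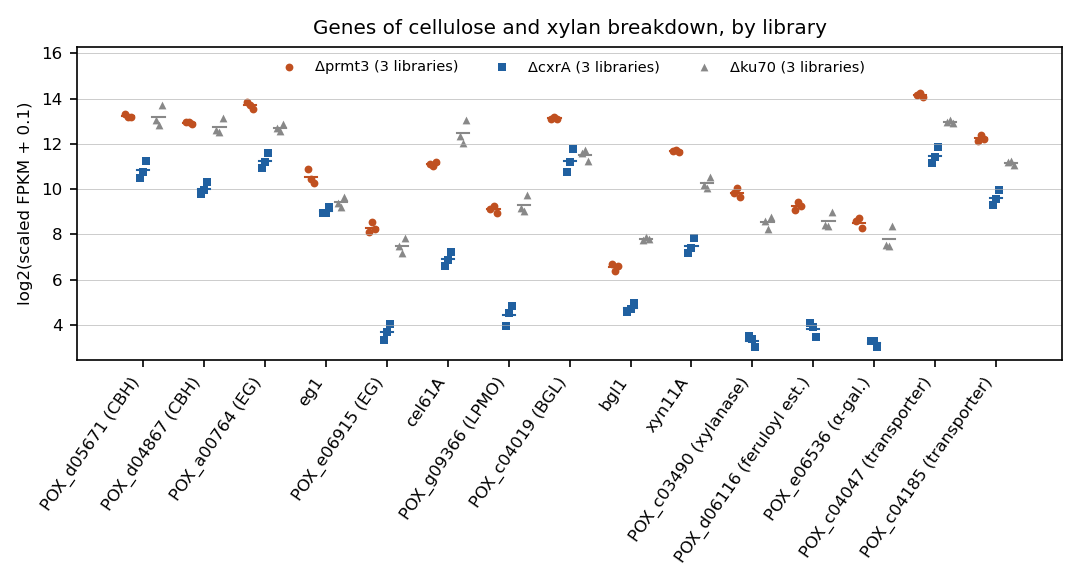
Level of 15 genes in each of the 9 libraries, as log2(scaled FPKM + 0.1), by strain, with a short line at the mean of each strain (CBH, cellobiohydrolase; EG, endoglucanase; LPMO, lytic polysaccharide monooxygenase; BGL, beta-glucosidase). For every gene plotted the 3 Δprmt3 libraries lie above the 3 ΔcxrA libraries, by 6.53 on average for POX_c03490 and by 1.49 for eg1.

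The lists of esterases and of arabinose-releasing enzymes held calls in both directions. Of 7 genes for acetyl xylan esterases and feruloyl esterases, which remove acetyl and ferulic acid groups, 6 were lower and 1 was higher in ΔcxrA. The feruloyl esterase gene POX_d06116 was at 546, 698 and 617 scaled FPKM in Δprmt3 and at 17.2, 14.8 and 11.1 in ΔcxrA, with 334 to 506 in Δku70. Its log2 difference was -5.44 (SE 0.20, limma adjusted p = 3.9e-07). The acetyl xylan esterase genes POX_g09330 and POX_a00713 differed by -3.32 and -2.05, and the feruloyl esterase gene POX_a00813 by -2.68. The feruloyl esterase gene POX_a01259 went the other way, at 1.96 ± 0.204 and 6.53 ± 0.512 (SD, n = 3), a difference of 1.69.

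Among 12 genes for enzymes that release arabinose 5 (41.7%) were lower and 2 (16.7%) were higher, against 32.5% and 36.0% over all 2469 genes listed by the study. The alpha-L-arabinofuranosidase gene POX_c03492 was at 1339, 1807 and 1400.5 scaled FPKM in Δprmt3 and at 52.7, 47.7 and 40.0 in ΔcxrA, a log2 difference of -5.01, and its neighbour POX_c03491, with the same annotation, differed by -3.65. The exo-arabinanase gene POX_b03436 was at 1.40, 1.15 and 3.57 in Δprmt3 and 19.4, 26.1 and 36.7 in ΔcxrA, a difference of 3.80. The endo-arabinosidase gene POX_d06099 was at 6.31 ± 1.95 and 31.7 ± 2.40 (SD, n = 3), a difference of 2.35. The members of this list therefore changed in both directions, and 5 were not called.

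The beta-xylosidases, which split xylooligosaccharides into xylose, also divided. POX_a00185 was at 8.23, 7.04 and 8.65 scaled FPKM in Δprmt3 and at 256, 219 and 151 in ΔcxrA, with 11.1 to 26.9 in Δku70. The rise of 4.66 on the log2 scale (SE 0.32, limma adjusted p = 6.7e-06) was the largest rise among the enzyme genes of these lists. POX_a01928 and POX_d05464 were lower in ΔcxrA, by -2.08 and -1.53, and the last of the 4 was not called. On FPKM without further scaling POX_d05464 differed by -0.96 and lost its call.

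All 6 genes for mannan and galactose side chain enzymes were lower in ΔcxrA. The endo-mannanase gene POX_b01946 was at 9177, 9758 and 9797 scaled FPKM in Δprmt3 and 1092, 1426 and 2002 in ΔcxrA, a log2 difference of -2.71. The alpha-galactosidase gene POX_e06536 was at 386, 421 and 309 in Δprmt3 and 9.74, 9.64 and 8.00 in ΔcxrA, a difference of -5.33 (SE 0.23, limma adjusted p = 8.0e-07). POX_h09767, also annotated as an endo-mannanase, differed by -3.44, and the endo-galactosidase gene POX_e06625 by -1.53. On FPKM without further scaling all 6 remained below 0 and 3 were called.

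Of 20 pectinase genes 11 were lower and 2 were higher, and on FPKM without further scaling 7 were lower and 4 higher. The rhamnogalacturonan hydrolase gene POX_b02031, at 80.0, 88.5 and 108 scaled FPKM in Δprmt3 and 5.84, 5.25 and 5.44 in ΔcxrA, differed by -4.03. The polygalacturonase genes POX_f08259 and POX_e07244 differed by -2.88 and -2.62 and the pectin lyase gene POX_g09173 by -2.78. For POX_f08259 the Δku70 libraries, at 18.0 to 38.4, lay below those of both mutants, which were at 239 to 456 and 39.7 to 50.5. The 2 genes that were higher in ΔcxrA, POX_d05147 and POX_c03480, are annotated as rhamnogalacturonan endolyases and stayed under 8 scaled FPKM in all 6 libraries.

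**Figure D3:**
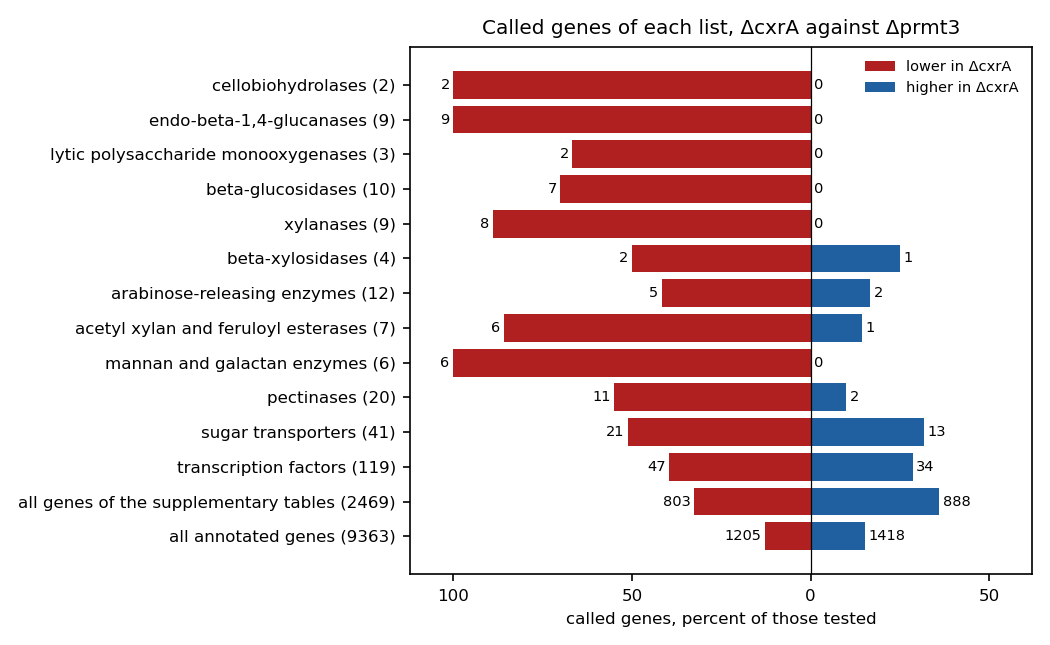
Share of the tested genes of each list that was called lower (bars to the left) or higher (bars to the right) in ΔcxrA, in percent, with the number of genes at the end of each bar and the number tested in parentheses. The lists of cellobiohydrolases, endoglucanases and mannan and galactan enzymes were lower in full, while sugar transporters, with 21 lower and 13 higher, and transcription factors, with 47 and 34, were divided.

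The sugar transporters changed in both directions. Of 41 genes 21 (51.2%) were lower and 13 (31.7%) were higher in ΔcxrA, with a median log2 difference of -1.11. Over all 2469 genes listed by the study 32.5% were lower and 36.0% higher. POX_c04047, which with POX_c04185 was taken as the pair of cellodextrin transporter genes that the study names, was at 18057, 19314 and 16953 scaled FPKM in Δprmt3 and 2258, 2731 and 3698 in ΔcxrA, with 7701 to 8540.1 in Δku70. Its log2 difference was -2.67 (SE 0.23, limma adjusted p = 2.1e-05). POX_c04185 was at 4881 ± 508 in Δprmt3 and 795 ± 188 in ΔcxrA (SD, n = 3), a difference of -2.64. The largest fall was that of POX_c04034, at 271, 395 and 275 in Δprmt3 and 24.8, 26.6 and 30.3 in ΔcxrA, a difference of -3.50. POX_f07704, POX_c04204 and POX_a01930 differed by -3.29, -3.19 and -2.71.

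The 13 transporter genes that were higher in ΔcxrA had at most 29.0 scaled FPKM on average in ΔcxrA. The largest difference, 5.04, was in POX_c04123, at 0.0594 to 0.243 in Δprmt3 and 7.43 to 7.74 in ΔcxrA. The FPKM of all 41 genes together made up 2.23% to 2.66% of a Δprmt3 library and 0.553% to 0.809% of a ΔcxrA library, without overlap (exact permutation p = 0.1, two-sided, the smallest possible).

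Genes annotated as transcription factors showed no common direction. Of 119 genes 34 (28.6%) were higher and 47 (39.5%) lower in ΔcxrA, with a median log2 difference of -0.63. On FPKM without further scaling 45 were higher and 27 lower. These genes and the families below come from the same tables of genes that the study had called. Of all 2469 genes there 36.0% were higher and 32.5% lower. Among 56 Zn2Cys6 genes 22 were higher and 16 lower, the last including the deleted cxrA. Apart from cxrA, and among Zn2Cys6 genes with a mean of at least 1 scaled FPKM, the largest differences were in POX_b02493, POX_d04825 and POX_f07987. POX_f07987 was at 60.6, 56.2 and 56.4 scaled FPKM in Δprmt3 and at 5.72, 5.84 and 5.53 in ΔcxrA, a difference of -3.32 (SE 0.11, limma adjusted p = 2.5e-07). POX_d04825 was at 14.4 to 17.6 and 1.22 to 1.71, a difference of -3.37. POX_b02493 differed by -4.82, with a standard error of 0.59, because Δprmt3 replicate 1, at 311 scaled FPKM, stood apart from replicates 2 and 3 at 60.9 and 48.3. All 3 were nonetheless above the ΔcxrA libraries, at 3.08 to 3.88.

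C2H2 zinc finger genes were lower more often than higher, 12 against 4 of 25. POX_c04470 was at 30.6, 19.9 and 27.0 scaled FPKM in Δprmt3 and at 1.31, 1.66 and 1.31 in ΔcxrA, with 57.0 to 95.8 in Δku70, a log2 difference of -4.07. POX_f07563 and POX_c04377 differed by -2.74 and -2.73. POX_d06068 was listed at 0 in all 3 Δprmt3 libraries and at 3.36, 2.40 and 3.71 scaled FPKM in ΔcxrA, so no fold is given for it.

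Other families held fewer genes. Of 12 genes with a winged helix repressor domain 5 were lower and 4 were higher. POX_a00746 was at 1169, 1269 and 1197 scaled FPKM in Δprmt3 and at 97.2, 108 and 123 in ΔcxrA, with 829.8 to 1222 in Δku70, a log2 difference of -3.47 (SE 0.16, limma adjusted p = 9.0e-07). POX_e06154 was at 153 ± 16.3 in Δprmt3, 24.4 ± 0.456 in ΔcxrA and 924 ± 109 in Δku70 (SD, n = 3), a difference of -2.64. POX_a01804 differed by 1.81 from levels under 1 in Δprmt3, and by 0.72 under quantile normalization, where it was not called.

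Homeobox and homeodomain-like genes were lower in 4 and higher in 1 of 8 cases, with the largest difference, -3.56, in POX_f08102 and differences of -1.60, -1.35 and -1.09 in POX_d05597, POX_a00673 and POX_a01307. Of 9 bZIP genes 4 were lower and 3 higher. The bZIP genes POX_b02401 and POX_a00957 differed by -2.26 and -1.57, and POX_b02549 and POX_b02345, both under 5 scaled FPKM in all 6 libraries, by 1.87 and 1.54. Of 4 Myb genes 3 were lower, among them POX_a00252 and POX_a00736 by -1.88 and -1.38, of 3 GATA genes 2, POX_g08613 and POX_f07472, by -1.50 and -1.38, and of 2 APSES genes 1, POX_f08200, by -1.03. On FPKM without further scaling neither GATA gene nor the APSES gene passed the threshold, nor did POX_a00673, POX_a01307, POX_a00957 and POX_a00736. POX_f08200 was also short of it without ΔcxrA replicate 1, at -0.97, and without Δprmt3 replicate 1, at -0.97.

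The regulators of conidiation, the formation of asexual spores, were considered next. The genes brlA, abaA and flbD, known from Aspergillus as regulators that switch on and pattern spore formation, were paired with identifiers by their annotation and by elimination. POX_c03558, taken as brlA, was at 9.93, 3.19 and 4.50 scaled FPKM in Δprmt3 and 1.91, 1.43 and 2.04 in ΔcxrA, with 145 to 172 in Δku70. Both mutants were thus far under the background strain, and the difference between them was -1.51 (SE 0.36, limma adjusted p = 0.0063) and -0.96 on FPKM without further scaling, where it was not called. POX_e07032, taken as flbD, was at 79.7, 53.1 and 81.1 in Δprmt3, 8.83, 7.98 and 8.51 in ΔcxrA and 140.1 to 203 in Δku70, a difference of -3.04. POX_e06958, taken as abaA, was at 6.45, 4.67 and 5.14 in Δprmt3, 20.1, 18.1 and 17.3 in ΔcxrA and 13.3 to 15.9 in Δku70, a difference of 1.77 in the other direction. For cxrC (POX_a00541), a repressor gene of the study, the difference was -0.62 (95% interval -1.07 to -0.17) and it was not called.

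Among the arginine methyltransferase genes, prmt2 (POX_f08428) was at 15.5, 17.2 and 17.4 scaled FPKM in Δprmt3 and at 48.5, 42.8 and 40.1 in ΔcxrA, with 19.7 to 20.5 in Δku70. Its log2 difference was 1.38 (SE 0.10, limma adjusted p = 7.1e-06). POX_d05270 was at 3.37, 6.55 and 5.53 in Δprmt3 and 16.1, 13.7 and 15.7 in ΔcxrA, a difference of 1.59. POX_e06662 was at 83.7 to 93.5 and 80.5 to 82.9, a difference of -0.11 (95% interval -0.34 to 0.11) that was not called, and its direction flipped to 0.46 on FPKM without further scaling, to 0.02 under quantile normalization and to 0.02 with upper quartile scaling. The actin gene POX_d06005, the reference gene of the study's RT-qPCR, was itself higher in ΔcxrA, at 36.8, 31.8 and 34.8 in Δprmt3, 101, 91.8 and 90.9 in ΔcxrA and 34.5 to 37.0 in Δku70. Its difference was 1.45 (SE 0.08, limma adjusted p = 2.3e-06), and every alternative tried kept the call. The RT-qPCR that the study describes compared Δprmt3 and overexpression strains with Δku70, not ΔcxrA. Between Δprmt3 and Δku70 actin differed by -0.04 on the log2 scale.

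**Figure D4:**
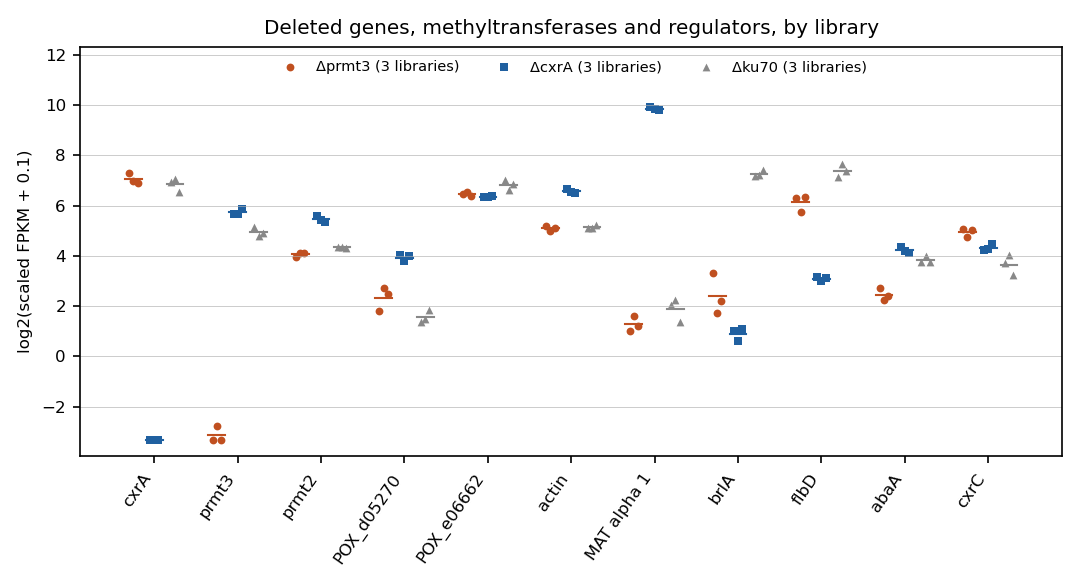
Level of the deleted genes, the other arginine methyltransferase genes, actin, the mating-type gene and regulators of conidiation in each of the 9 libraries, as log2(scaled FPKM + 0.1), by strain, with a short line at the mean of each strain. The mating-type gene MAT alpha 1 (POX_g09022) lies near 920.1 scaled FPKM in ΔcxrA and under 5 in the other strains, and actin and prmt2 are higher in ΔcxrA than in both other strains.

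Among genes above 0 in all 6 libraries, with a mean of at least 10 scaled FPKM and no overlap, the largest rise was in POX_g09022, annotated as the mating-type protein MAT alpha 1, a transcription factor that sets the mating type of ascomycetes. It was at 1.93, 2.91 and 2.19 scaled FPKM in Δprmt3, 959, 917 and 885 in ΔcxrA and 2.49 to 4.63 in Δku70. The log2 difference was 8.58 (SE 0.23, limma adjusted p = 1.1e-07), and the 6 libraries of the other strains all stayed under 5 scaled FPKM. The other 9 of the 10 largest rises have no functional annotation in the sources used here. POX_e07279, the most abundant of them, was at 16.9, 14.1 and 13.3 in Δprmt3, 1541, 1588 and 1681 in ΔcxrA and 195 to 349 in Δku70, a difference of 6.76. POX_d05285 and POX_a00529 were at or under 1.26 in Δprmt3 and at 30.7 ± 1.53 and 156 ± 8.86 in ΔcxrA (SD, n = 3), with differences of 7.49 and 7.45. POX_g09227 and POX_f08121 rose by 7.85 and 5.89, but their ΔcxrA libraries were spread over 42.4 to 191 and 197 to 721 scaled FPKM. The differences of POX_b02054, POX_b03374, POX_h09771 and POX_h09550 were 6.26, 6.16, 6.00 and 5.95.

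Among the 10 largest falls under the same limits were the xylanase gene POX_c03490, the feruloyl esterase gene POX_d06116 and the alpha-galactosidase gene POX_e06536 described above. The largest was POX_g09172, without functional annotation, at 182, 338 and 212 scaled FPKM in Δprmt3, 2.02, 1.53 and 1.34 in ΔcxrA and 45.5 to 141 in Δku70, a log2 difference of -7.11 (SE 0.42, limma adjusted p = 3.0e-06). In POX_c03497 the values were 567, 384 and 563 in Δprmt3, 5.52, 8.68 and 3.41 in ΔcxrA and 1614 to 2112 in Δku70, a difference of -6.48. POX_g08671 and POX_b01993 differed by -5.42 and -5.52, and in both the Δku70 libraries, at 23.9 to 32.8 and 5.08 to 13.4, were closer to ΔcxrA than to Δprmt3, at 466 to 619 and 107 to 132. POX_b03361 differed by -5.49, with 275 to 331 in Δku70 above both mutants. POX_u09929, on an unplaced sequence, was listed with a difference of -5.56, but its ΔcxrA libraries ran from 1.15 to 323 scaled FPKM, its standard error was 1.89, and its adjusted p of 0.031 from limma rose to 0.059 without ΔcxrA replicate 3, to 0.088 without Δprmt3 replicate 2 and to 0.071 without Δprmt3 replicate 3.

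The highest transcripts also differed between the strains. In Δprmt3 the 5 highest annotated genes were POX_b02060, POX_c04047, POX_c03788, POX_h09441 and POX_u09934, of which POX_c04047 is the transporter gene above and the others have no functional annotation. POX_b02060 was at 20358, 19782 and 21486 scaled FPKM in Δprmt3, 5677, 5731 and 5594 in ΔcxrA and at most 178 in Δku70. Its difference of -1.86 had an adjusted p of 0.076 from limma, with the spread among the Δku70 libraries in the fit, and 0.00026 when only the 6 mutant libraries were fitted. POX_h09441 was likewise at 16156 to 16356 in Δprmt3, 2491 to 4743 in ΔcxrA and 6.86 to 77.1 in Δku70, a difference of -2.18. Its adjusted p of 0.031 rose to between 0.052 and 0.097 when any single replicate of a mutant was left out. Both genes were thus abundant in both mutants and scarce in the background strain.

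In ΔcxrA the 5 highest annotated genes were POX_g09001, POX_f08207, POX_c04656, POX_c03788 and POX_g09376. POX_f08207 was at 168, 183 and 169.9 scaled FPKM in Δprmt3 and 8093, 7513 and 6404 in ΔcxrA, with 426 to 491 in Δku70, a log2 difference of 5.40 (SE 0.11, limma adjusted p = 5.0e-08). POX_g09376 and POX_c04656 differed by 3.94 and 2.01. POX_g09001 differed by 1.01, and by 0.94 without ΔcxrA replicate 3 and 0.84 without Δprmt3 replicate 1, short of the threshold, and POX_c03788 by -1.38, which flipped to 0.16 under quantile normalization.

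Some genes were listed at 0 in every library of 1 mutant and above 0 in every library of the other. Of 9363 annotated genes tested, there were 93 such genes for Δprmt3 and 6 for ΔcxrA, of which cxrA was the most highly expressed. The lowest ΔcxrA value of each of the 93 genes ran from 0.0313 to 43.8 scaled FPKM. Of these genes, 11 lie in the window described below. More features were above 0 in a ΔcxrA library, 10202 to 10270, than in a Δprmt3 library, 9846 to 9885. POX_a01001 was listed at 0 in ΔcxrA and at 30.8, 18.9 and 21.7 scaled FPKM in Δprmt3, with 13.9 to 17.8 in Δku70. POX_a01732 was at 5.36 to 5.75 in Δprmt3, and POX_b02062 and POX_f07629 ranged there from 0.669 to 6.26. Of the genes listed at 0 in Δprmt3, POX_b02439 was at 51.2, 43.8 and 85.9 in ΔcxrA, POX_c04583 at 42.8, 41.3 and 36.5, POX_c04601 at 25.1, 23.2 and 20.1, POX_a00204 at 17.3, 23.6 and 30.4 and POX_e06596 at 22.9, 14.7 and 14.2. POX_a00204 was also listed at 0 in all Δku70 libraries, while POX_c04583 and POX_c04601 were at 27.9 to 32.9 and 12.6 to 17.7 there. POX_b02439 was at 34.4, 14.6 and 0 in Δku70 and POX_e06596 at 5.65, 0 and 0, so single Δku70 libraries were also at 0. The differences of POX_b02439 and POX_e06596 had standard errors of 1.83 and 1.38.

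POX_c04583 and POX_c04601 lie in a window of 28 neighbouring genes, POX_c04575 to POX_c04604, whose limits were chosen after the values were seen. In this window 18 genes were listed at 0 in all 3 Δprmt3 libraries, 4 of them at 0 in all 9 libraries. Of 19 genes above 0 in all ΔcxrA libraries, 16 had at most 1 scaled FPKM in every Δprmt3 library. POX_c04595 was at 0.417, 0 and 0 scaled FPKM in Δprmt3, 184, 162 and 138 in ΔcxrA and 155 to 169 in Δku70. POX_c04600 was listed at 0 in Δprmt3 and was at 9.25 to 11.1 in ΔcxrA and 7.64 to 9.50 in Δku70. The ΔcxrA and Δku70 libraries of POX_c04595 overlapped, so for this gene the low values were those of Δprmt3. Other genes of the window differed between ΔcxrA and Δku70. Mean scaled FPKM in ΔcxrA and Δku70 was 19.9 and 7.21 for POX_c04588, 4.67 and 0.410 for POX_c04590 and 203 and 321 for POX_c04587.

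The exceptions in the window were 3 genes. POX_c04578 was at 9.04, 9.97 and 10.8 scaled FPKM in Δprmt3, 56.9, 58.2 and 60.0 in ΔcxrA and 71.6 to 88.2 in Δku70. POX_c04587 was at 39.7, 51.3 and 50.1 in Δprmt3 and 199, 204 and 205 in ΔcxrA. POX_c04580 was at 34.1 to 46.8 in Δprmt3 and at 21.0 to 27.2 in ΔcxrA, and was not called. Of 24 genes of the window that could be tested, 18 were called higher and 0 lower in ΔcxrA, but since the window was chosen for its values this is a description. The next gene, POX_c04605, was at 13.3 to 13.7 in Δprmt3, 6.22 to 9.05 in ΔcxrA and 5.51 to 6.63 in Δku70. Whether these genes are present in the genome of the Δprmt3 strain was not tested.

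**Figure D5:**
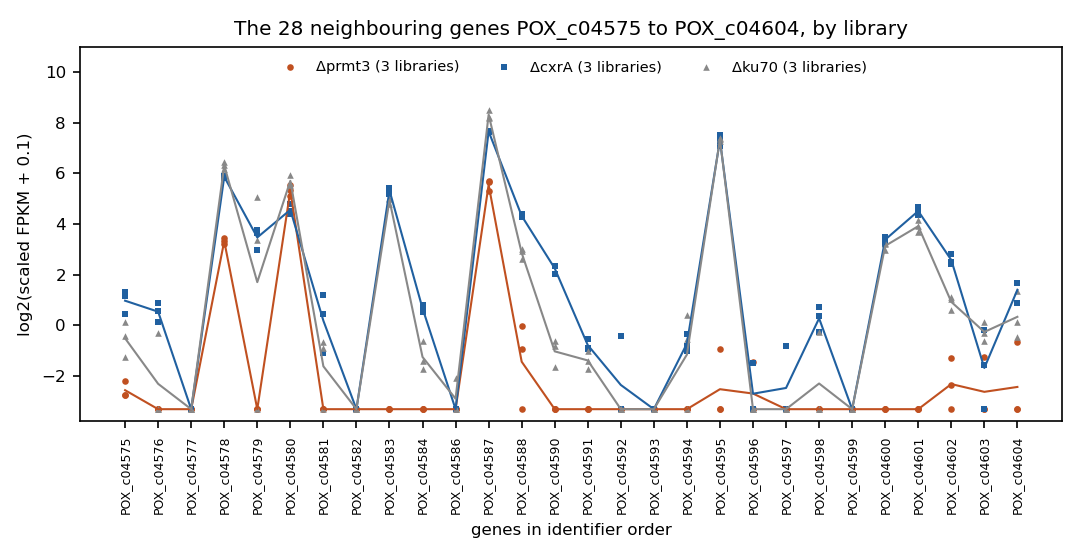
Level of the 28 genes POX_c04575 to POX_c04604 in identifier order (x axis) in each library, as log2(scaled FPKM + 0.1), with lines through the strain means. All Δprmt3 points lie at the floor, which stands for 0, for 18 of the 28 genes, and far above it for POX_c04578, POX_c04580 and POX_c04587. Some or all Δprmt3 points also leave the floor for POX_c04575, POX_c04588, POX_c04595, POX_c04596, POX_c04602, POX_c04603 and POX_c04604. The highest of these points stands for 0.867 scaled FPKM, for POX_c04588 in Δprmt3 replicate 2. ΔcxrA and Δku70 run close to each other at POX_c04583, POX_c04595 and POX_c04600.

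DEGs of the same direction also stood side by side elsewhere. There were 10 runs of at least 5 neighbouring annotated genes that were all called in 1 direction, 3 of them lower and 7 higher in ΔcxrA, in the gene order of RefSeq assembly ASM172317v3. No test was made of whether runs of this length are more frequent than in a shuffled order. In the run POX_c03828 to POX_c03832, POX_c03828 changed sign under quantile normalization. POX_c03831 of that run differed by as little as 0.93 with a single replicate left out, short of the threshold. In the run POX_g09227 to POX_g09231, POX_g09228 changed sign under quantile normalization. These runs thus did not hold under every setting. The longest runs that were lower in ΔcxrA were the 13 genes POX_c04237 to POX_c04249 and the 7 genes POX_c04512 to POX_c04518. In the first the means lay between 0.227 and 4.52 scaled FPKM in ΔcxrA, between 1.37 and 14.8 in Δprmt3 and between 54.1 and 928 in Δku70, so that the difference is between residual levels in both mutants. Its member POX_c04247 differed by -1.06, and by as little as -0.74 with a single replicate left out, short of the threshold. The length of this run thus depended on the replicates used. In the second the means were 0.477 to 3.02, 1.45 to 33.9 and 48.1 to 589.8, and the run includes the sugar transporter gene POX_c04515 and the winged helix gene POX_c04517. POX_c04518 overlapped between the strains and lost its call when only the 6 libraries were fitted, without ΔcxrA replicate 1 and without Δprmt3 replicate 1 or 3. POX_c04512, at the other end of the run, differed by -1.11 and by -0.97, -0.93 and -0.85 without ΔcxrA replicate 2, ΔcxrA replicate 3 and Δprmt3 replicate 1, short of the threshold.

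The run of the 5 genes POX_c03488 to POX_c03492 differed from these in that Δprmt3 had the highest values. It holds the xylanase gene POX_c03490 and both alpha-L-arabinofuranosidase genes described above. The means were 9.68 to 56.5 scaled FPKM in ΔcxrA, 124 to 1516 in Δprmt3 and 22.1 to 749 in Δku70. POX_c03488 was at 357, 331 and 245 in Δprmt3 and 39.4, 56.1 and 74.1 in ΔcxrA, and POX_c03489 at 121, 149 and 127 and 25.7, 32.1 and 49.5.

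Of the runs that were higher in ΔcxrA, 3 had 6 genes, and 1 of them lay in the window above, from POX_c04587 to POX_c04595. Inside that stretch POX_c04592, which was tested, not called and not placed in RefSeq, and POX_c04593, at 0 in all 9 libraries, were passed over, and no other run held such a gap. The run POX_a01062 to POX_a01067 starts with a Zn2Cys6 gene, POX_a01062, at 3.38 to 4.97 scaled FPKM in Δprmt3 and 10.0 to 11.1 in ΔcxrA. Its members POX_a01065 and POX_a01067 were at 14.3 ± 3.45 and 0.856 ± 0.447 in Δprmt3 and at 118 ± 18.3 and 16.1 ± 3.71 in ΔcxrA (SD, n = 3). In the run POX_h09738 to POX_h09743 the highest gene was POX_h09743, at 13.4, 15.2 and 15.2 in Δprmt3, 147, 141 and 119 in ΔcxrA and 9.19 to 13.4 in Δku70, a log2 difference of 3.21. The differences over this run lay between 1.25 and 3.35.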

How the data were processed

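The authors cleaned the reads with SOAPnuke 2.1.0, mapped them with HISAT2 2.2.1, quantified them with RSEM 1.3.3 and Bowtie2 2.3.5 and deposited FPKM, 1 table per library with 11082 features. The genome build of the tables is not given in the sources used here, and read counts were not analysed here, so tests for counts were not run. RSEM values need not be whole reads, and reads were not recovered. The lowest FPKM multiplied by gene length had medians of 0.0779 to 0.113 in the 9 libraries, from 4 to 33 values each. The highest median was 1.45-fold the lowest. Only products within a narrow range fixed in advance were used, so this sets no bound on how depths differed. No counting error is given. FPKM of abundant transcripts lower those of all others, which is why libraries were scaled.

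The 504 features with no value above 0 in any library were dropped. Median-of-ratios factors came from 9335 features above 0 in every library. The values log2(scaled FPKM + 0.1) of 10578 features went into a linear model (limma 3.58.1 under R 4.3.3, eBayes with trend) with all 9 libraries and a mean per strain, so that the Δku70 libraries share the estimate of spread (2.38 prior degrees of freedom). The fit was tested on simulated data. Exact permutation tests used SciPy 1.17.1.

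The Δprmt3 libraries carry another identifier in their labels and were taken as Δprmt3 because POX_b03080 is at or near 0 in them. POX_a00763 was taken as cxrA because its RefSeq length of 2380 bases, shared by 4 genes, equals a product of the study's CxrA primers, it is annotated as Zn2Cys6 and it is at 0 in ΔcxrA. Annotations came from the study's supplementary tables (2469 genes, of which 2199 are hypothetical proteins, 1 table shortened), whose own fold changes and p-values were not used. RefSeq ASM172317v3 gave gene order and length for 9718 of 9822 identifiers. Lists for ribosomal proteins, the proteasome and other classes could not be formed from these annotations.

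Members and lists were chosen with earlier results of these data known. Genes named are the deleted and methyltransferase genes, those the study names, the 10 largest rises and falls (mean of at least 10 scaled FPKM, above 0 in all 6 libraries, no overlap), up to 4 per list, the 5 highest listed at 0 in each direction, the 3 longest runs in each direction and the 5 highest of each strain. Others were named for their position or after their values were seen. Alternatives were no scaling, quantile and upper quartile scaling, pseudocounts of 1 and 0.01, a mean of at least 1 scaled FPKM, only the 6 libraries, the replicate block, robust eBayes, an unadjusted p-value and each replicate left out. Only loci with an annotated identifier was added after seeing the data.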

Additional observations from a re-analysis of the deposited data

How the results depend on the processing

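With FPKM taken as deposited, 2729 annotated genes were higher and 594 lower in ΔcxrA, 10 plant cell wall enzyme genes were higher instead of 6, and 27 transcription factor genes were lower instead of 47. These FPKM are shifted upward in ΔcxrA as a whole, by a median of 0.57 on the log2 scale. Single genes reversed as follows. POX_c03788, POX_c03828 and POX_g09228 went to 0.16, -0.39 and -0.63 under quantile normalization. The cause was not tested. POX_e06662, at -0.11 and not called, went to 0.46 without scaling and 0.022 with upper quartile scaling, as far as these settings shift the median of all genes, and to 0.018 under quantile normalization. Counts for enzyme classes and factor families, which hold few genes, moved by over 1.5 times in 24 cases. Without scaling, pectinases had 7 lower and 4 higher instead of 11 and 2, mannan and galactan enzymes 3 lower instead of 6 and beta-xylosidases 1 lower instead of 2. The other counts over all annotated genes, plant cell wall enzymes, sugar transporters and transcription factors stayed within 1.5 times, with 2468 to 2621 annotated DEGs when single replicates were left out. Of 170 called genes followed one by one, 135 kept their call and direction under every alternative. Deviations of same-numbered libraries correlated across features at 0.024, -0.060 and -0.0037, and the replicate block gave 2589 annotated DEGs against 2623. No pairing by replicate number was thus seen, but correlations across all features cannot show a batch shared by few genes. Depth is unknown, so genes listed at 0 cannot be told from genes under the detection limit, and 3 libraries per strain limit the precision.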

Other observations

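Some abundant genes differed widely between replicates of the same mutant. Of the annotated genes with a mean of at least 100 scaled FPKM over the 6 libraries of the mutants, 11 varied over 10-fold within ΔcxrA or within Δprmt3. Of these, 4 are identifiers of the POX_u series, which differed among the ΔcxrA libraries. POX_u09934 was at 4969, 6716 and 189 scaled FPKM in ΔcxrA, 17014, 14941 and 16215 in Δprmt3 and 219.5, 14476 and 198 in Δku70. The low libraries were thus ΔcxrA replicate 3 and Δku70 replicates 1 and 3. The other 7 varied among the Δprmt3 libraries. POX_e06527 was at 20.9, 186 and 1529 in Δprmt3 and 538 to 1007 in ΔcxrA, and POX_c03646 at 14.2, 73.8 and 669.5 and 331 to 809. Neither was called. POX_a01121 was at 4.08, 16.9 and 98.0 in Δprmt3 and 593 to 712 in ΔcxrA, without overlap, a called log2 difference of 5.12 (adjusted p = 0.0033 from limma). These genes were chosen after their values were seen, and the source of the spread was not tested.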
